A study of Solanum tuberosum with 9 samples.

Results

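Lectins are proteins that bind sugars, and in plants many of them are built into receptor kinases that sit at the cell surface. The loci described here are all those whose product name in the deposited gene tables contains the word lectin. There were 107 such loci among the 24169 genes of the tables. They comprised 73 G-type lectin receptor kinases, 25 L-type lectin receptor kinases and 9 chitin-binding or other lectins. The last class held 4 chitin-binding lectins, 3 jacalin-related lectins, a C-type lectin receptor kinase and an anti-H(O) lectin.

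The RNA came from leaves of the diploid potato population labelled Diploid hybrid 15-1, progeny of the Solanum hybrid DG 88-89 and the wild species S. chacoense. The plants were untreated, were grown in a greenhouse and were sampled at full anthesis, and all of them had leaf extracts high in glycoalkaloids. Bulk sample B’ was made from individuals whose leaf extracts had low phytotoxicity towards mustard seedlings, F’ from individuals whose extracts stimulated seedling growth (labelled hormesis), and A’ from individuals whose extracts had high phytotoxicity. Each bulk pooled the leaves of 3 individuals and was represented by 3 libraries, 9 libraries in all, and how the 3 libraries of a bulk arose is not stated. The p-values below therefore measure the spread between libraries, which may be technical, and a bulk of so few segregating individuals stands for those plants.

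G-type lectin receptor kinases carry a domain related to the mannose-binding lectins of bulbs, and they include the S-receptor kinases that govern self-incompatibility in Brassica. L-type lectin receptor kinases carry a domain like that of legume seed lectins, and several of them act in pathogen and damage perception in Arabidopsis. Chitin-binding lectins recognise the N-acetylglucosamine polymer of fungal walls, and the potato lectin of this kind is a glycoprotein rich in hydroxyproline known from the tuber. Jacalin-related lectins are mostly soluble mannose or galactose binders.

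The reads counted on genes numbered between 21199110 and 22517178 per library. Summed over 35 loci, chlorophyll a-b binding proteins had 1243341 to 1565116 normalised counts in B’, 1709824 to 2158579 in F’ and 2389380 to 3082611 in A’. The 4 Rubisco small chain loci had 305537 to 327279 in B’, 382854 to 433318 in F’ and 450143 to 573006 in A’, and neither of these sums overlapped between the groups. Rubisco activase (3 loci) had 181162 to 254091 in B’, 359336 to 475752 in F’ and 463661 to 464033 in A’, so that F’ and A’ overlapped. The leaf markers were thus abundant in every library. Patatins, the tuber storage proteins, summed to 3505 to 5208 in B’, 2398 to 2953 in F’ and 3011 to 3517 in A’ over 18 loci, and 5 anther-specific loci to 118 to 201 in B’, 52.3 to 148 in F’ and 136 to 188 in A’. The 22 loci named for pollen summed to 3897 to 4336 in B’, 4068 to 4391 in F’ and 4219 to 4824 in A’. The 2 loci named for exine had 734 to 904 in B’, 943 to 1014 in F’ and 839 to 1002 in A’, so F’ exceeded B’. The leaf marker sums were lower in B’ than in A’, and those of chlorophyll a-b binding proteins and the Rubisco small chain were also lower in F’ than in A’. Patatins and anther-specific loci overlapped between B’ and A’, whereas the patatin sums of F’ lay below those of both other bulks. The part of these levels in the lectin results was not tested. In bulk leaf RNA, fewer cells of a type and less RNA per cell cannot be told apart.

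A normalised count is the raw count after TMM scaling of the 9 libraries to their common mean size. Log2FC is B’ over A’, F’ over A’ or F’ over B’, so a positive value means higher in the bulk named first. Genes were called with edgeR’s quasi-likelihood test at a false discovery rate (FDR) under 0.05 over all genes tested. The B’ and F’ comparisons share the A’ libraries, and B’ and F’ were therefore also set against each other directly.

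The summed level of the chitin-binding lectins was lower in B’ and in F’ than in A’. Summed over the 4 loci, they had 3449, 2942 and 1717 normalised counts in the 3 libraries of B’, 503, 779.3 and 566.9 in F’, and 6836, 6150 and 7008 in A’. The sums did not overlap between the groups, with F’ lowest and A’ highest. By locus, however, libraries overlapped between B’ and A’ at LOC107059184 and between F’ and A’ at LOC107058372. All 3 of the loci that could be tested were called lower in B’ vs. A’, as were 16.5% of all genes tested, and lower in F’ vs. A’, as were 18.2%.

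The most abundant of them, LOC102603482, had 1809, 1604 and 1120 normalised counts in B’, 330, 513 and 390 in F’, and 4995, 3716 and 3824 in A’. Its Log2FC was −1.46 ± 0.179 (SE, FDR = 9.38e-05, edgeR) in B’ vs. A’ and −3.33 ± 0.175 (FDR = 8.37e-09) in F’ vs. A’. It was also lower in F’ than in B’, with a Log2FC of −1.89 ± 0.203 (FDR = 8.66e-05). The 3 groups were thus separate from each other at this locus, in the order F’, B’, A’ from low to high.

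LOC107059184, named chitin-binding lectin 1, had 107, 179 and 107 normalised counts in F’ against 1625, 2255 and 3036 in A’, a Log2FC of −4.13 ± 0.244 (FDR = 2.56e-08). In B’ it had 1641, 1337 and 596, so that the libraries of B’ and A’ overlapped. The B’ vs. A’ difference, a Log2FC of −0.95 ± 0.309 (FDR = 0.0353), was lost without A’ library 2 (FDR = 0.0798) or A’ library 3 (FDR = 0.167), with DESeq2 (adjusted p = 0.138) and with the library number as a block (FDR = 0.269). F’ was lower than B’ with a Log2FC of −3.20 ± 0.356 (FDR = 0.000105).

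LOC107058371 had no read in any library of B’. It had 58.6, 71.5 and 61.7 normalised counts in F’ and 204, 170 and 140 in A’. Against a floor of 3 counts per library, its level in B’ was at least 63.0-fold lower than in A’, and its level in F’ was at least 23.5-fold higher than in B’. The fitted Log2FC values of −10.40 (FDR = 1.04e-06) and 9.08 (FDR = 2.64e-05) depend on the prior count of the fit and are not measured folds. In F’ vs. A’, where both groups had reads, the Log2FC was −1.41 ± 0.188 (FDR = 5.61e-05). At this locus B’ was lowest, whereas F’ was lowest at LOC102603482 and LOC107059184.

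The 4th locus, LOC107058372, had too few reads to be tested. It had 0, 1 and 1 raw counts in B’, and its normalised counts were 7.44, 14.9 and 7.71 in F’ and 11.7, 8.73 and 8.09 in A’. The summed level in A’ was 15.7 times that in B’ (exact 95% counting interval 3.92 to 137), and the level in F’ was 16.3 times that in B’ (4.14 to 141). The intervals cover counting error only.

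**Figure D1:**
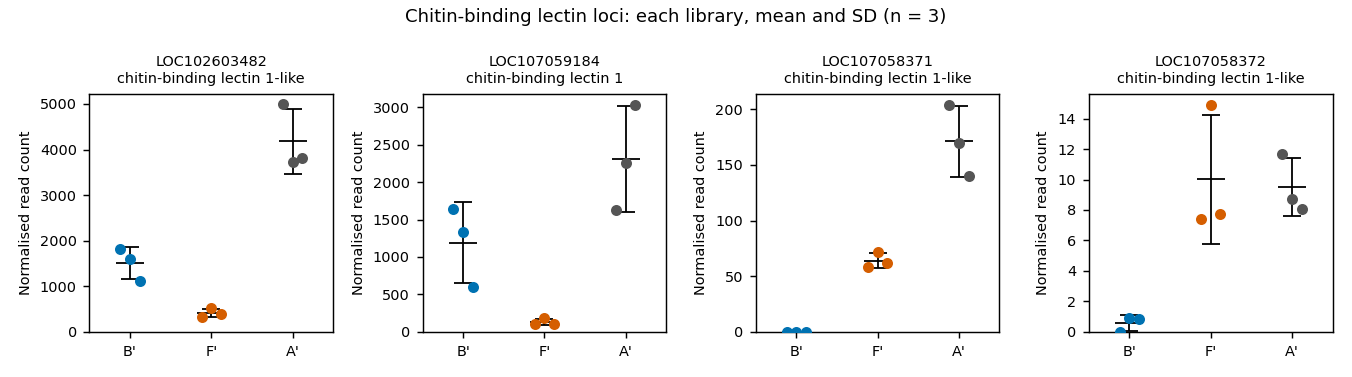
Normalised read counts (y axis, linear, starting at 0) of the 4 chitin-binding lectin loci in B’, F’ and A’. Points are single libraries and bars are the mean with the SD (n = 3). LOC107058371 is at 0 in all B’ libraries and between 140 and 204 in A’, whereas LOC107059184 lies at or below 179 in F’ and overlaps between B’ and A’.

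Of these loci, 3 lie on a single contig of the SolTub_3.0 assembly, which the tables place on chromosome 3 for LOC107058372 (bases 318872 to 320423, plus strand) and LOC107058371 (375187 to 375855, minus strand) and leave unplaced for LOC102603482 (339147 to 339656, plus strand). LOC107059184 occupies bases 7 to 518 of another, unplaced contig (minus strand) and so ends at the contig’s edge. The gene models are short, at 1552, 669, 510 and 512 bases. How reads that match several of these copies were counted is not given in the sources used here, so the division of reads between the 4 loci is uncertain, and reads shared by them may have been left out.

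Of the other soluble lectins, jacalin-related lectin 3 (LOC102583489, chromosome 10) had 556, 460 and 516 normalised counts in F’, against 1101, 959 and 894 in B’ and 793, 1186 and 1185 in A’. F’ was below every library of B’ and A’, with a Log2FC of −1.03 ± 0.155 vs. A’ (FDR = 0.000163) and −0.95 ± 0.126 vs. B’ (FDR = 0.000318). B’ and A’ overlapped (Log2FC −0.09 ± 0.161, FDR = 0.709). A related locus, LOC102578559, had 234 to 273 normalised counts in B’, 204 to 288 in F’ and 200 to 206 in A’, and its FDR was 0.0759 in B’ vs. A’, 0.172 in F’ vs. A’ and 0.785 in F’ vs. B’.

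Jacalin-related lectin 19 (LOC102598450, chromosome 3) rose in B’, where it had 327, 359 and 346 normalised counts against 270, 215 and 235 in A’ (Log2FC 0.53 ± 0.133, FDR = 0.00936). Its F’ libraries, at 281, 223 and 304, overlapped with A’ and lay below those of B’ without a call (Log2FC −0.36, FDR = 0.0819). The C-type lectin receptor kinase LOC102578624, which belongs to a family with a calcium-dependent sugar-binding domain, had 820, 865 and 772 normalised counts in F’, against 550, 535 and 543 in B’ and 599, 690 and 662 in A’. Its rise over B’ had a Log2FC of 0.59 ± 0.104 (FDR = 0.0019). The smaller rise over A’ (0.35 ± 0.113, FDR = 0.0273) was lost without A’ library 1 or 3 or F’ library 1 or 2, with FDR between 0.0562 and 0.0864, and with the block (0.0617). The anti-H(O) lectin LOC102590841 had at most 5.13 normalised counts in any library and was not tested. In the whole class of 9 loci, 7 were tested, of which 1 rose and 3 fell in B’ vs. A’, 1 rose and 4 fell in F’ vs. A’, and 2 rose and 3 fell in F’ vs. B’. Among all genes tested, 16.4% rose and 16.5% fell in B’ vs. A’, 17.5% and 18.2% in F’ vs. A’, and 13.7% and 16.3% in F’ vs. B’. The class median Log2FC of −0.25, −1.03 and −0.36 in these comparisons rests on few loci, and the value for F’ vs. A’ was 0.08 with DESeq2. The DESeq2 fit used no expression filter, so that median was taken over all 9 loci instead of the 7 tested.

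Among all the lectin loci, soluble lectins included, most of those called against A’ were higher. Of the 81 lectin loci tested in B’ vs. A’, 43 were called, which is 53.1%, beside 32.9% of all genes tested. Of these, 30 rose and 13 fell, beside 16.4% and 16.5% of all genes. In F’ vs. A’, 39 of 82 were called, which is 47.6%, beside 35.6% of all genes, with 28 higher and 11 lower, beside 17.5% and 18.2%. In F’ vs. B’, 42 of 86 were called, which is 48.8%, beside 30.0% of all genes, with 22 higher and 20 lower, beside 13.7% and 16.3%. The median Log2FC of the tested lectin loci was 0.33 in B’ vs. A’, 0.27 in F’ vs. A’ and −0.07 in F’ vs. B’, beside 0.02, 0.02 and 0.00 for all genes. No test of the list as a whole was made.

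Of the 107 loci, 78 were tested in all 3 comparisons, 7 in 2 of them, 1 in 1 and 21 in none, and the untested ones had few reads. The libraries of the groups did not overlap for 49 of the 81 loci tested in B’ vs. A’, 46 of 82 in F’ vs. A’ and 49 of 86 in F’ vs. B’. Among all genes tested, 47.4%, 47.5% and 44.3% showed no overlap.

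**Figure D2:**
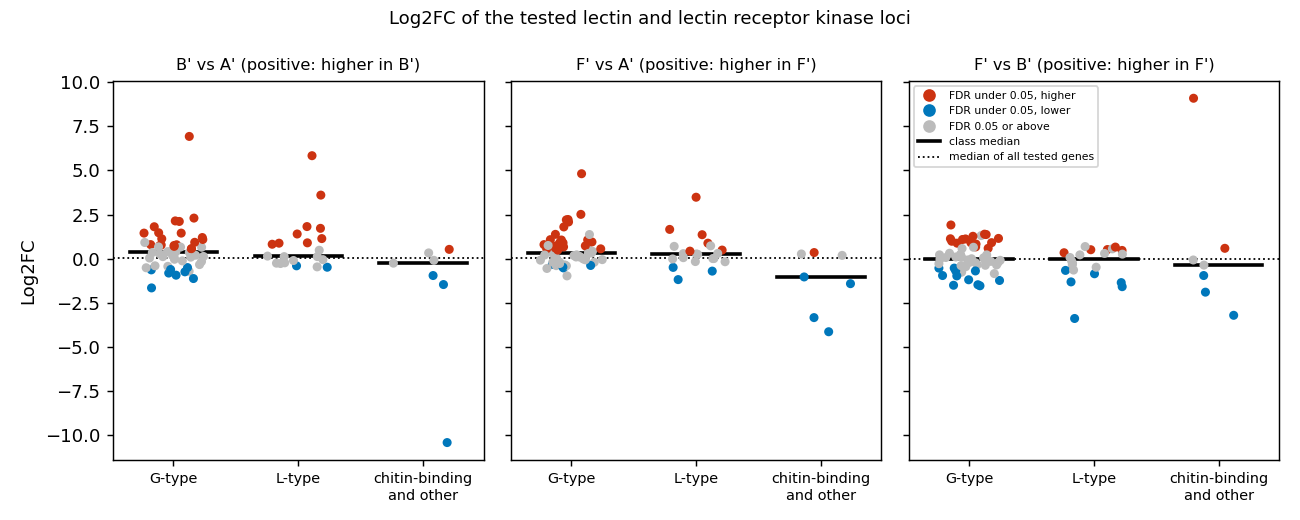
Log2FC (y axis) of each tested lectin locus by class in B’ vs. A’, F’ vs. A’ and F’ vs. B’. Points are loci, red for those called higher and blue for those called lower at an FDR under 0.05, thick lines are class medians and the dotted line is the median of all genes tested. G-type medians are 0.39, 0.31 and −0.02, and the values of −10.40 and 9.08 belong to LOC107058371, which had no read in B’.

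The G-type class had 28 of 53 tested loci called in B’ vs. A’, 20 higher and 8 lower, with a median Log2FC of 0.39. For F’ vs. A’ it had 25 of 54 called, 21 higher and 4 lower, with a median of 0.31. Set against B’, F’ had 26 of 57 called, 15 higher and 11 lower, with a median of −0.02. The shares called were 52.8%, 46.3% and 45.6%, beside 32.9%, 35.6% and 30.0% of all genes tested. Summed over the 73 loci, the class had 17436 to 19375 normalised counts in B’, 17577 to 18675 in F’ and 14734 to 17331 in A’. All libraries of B’ and F’ thus lay above all of A’, with the highest A’ library close to the lowest B’ library.

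RLK1 was the product name of 11 G-type loci, all of which were tested. Of these, 6 rose and 2 fell in B’ vs. A’, 3 rose and 2 fell in F’ vs. A’, and 3 rose and 5 fell in F’ vs. B’. The shares called were 72.7%, 45.5% and 72.7%, beside 32.9%, 35.6% and 30.0% of all genes, which is also the background of the counts by product name below. The lowest FDR among them in B’ vs. A’ was that of LOC107063133 (chromosome 9), which had 452, 509 and 489 normalised counts in B’, 161, 169 and 175 in F’, and 123, 166 and 126 in A’. It was higher in B’ than in A’ by a Log2FC of 1.81 ± 0.149 (FDR = 4.83e-06) and lower in F’ than in B’ by −1.53 ± 0.118 (FDR = 1.06e-05), whereas F’ and A’ overlapped (0.30 ± 0.160, FDR = 0.164).

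LOC102605532, another RLK1 locus, had 203, 222 and 189 normalised counts in B’, 71.6, 81.1 and 65.6 in F’, and 83.2, 140 and 101 in A’. B’ again stood above both other bulks (Log2FC 0.93 ± 0.192 vs. A’, FDR = 0.00318), and F’ was below B’ by −1.50 ± 0.158 (FDR = 7.37e-05). Its F’ vs. A’ value of −0.55 did not pass (FDR = 0.0595). LOC102595458 was instead lowest in B’ and highest in A’, with 261, 292 and 178 normalised counts in B’, 386, 380 and 341 in F’, and 460, 492 and 452 in A’. Its Log2FC was −0.93 ± 0.167 in B’ vs. A’ (FDR = 0.00131). The F’ vs. A’ value of −0.32 (FDR = 0.0420) was lost with DESeq2 (adjusted p = 0.0678), with the block (FDR = 0.0928) and with all 9 libraries in 1 fit (FDR = 0.105). It was also lost when any of 4 libraries was left out (FDR between 0.0743 and 0.150). The F’ vs. B’ value of 0.59 (FDR = 0.0261) was lost when any library of F’ was left out (FDR between 0.0502 and 0.0875).

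The most abundant RLK1 locus, LOC102594793, had 1823, 1619 and 1406 normalised counts in B’, 2504, 2826 and 2420 in F’, and 2334, 2362 and 2212 in A’. It fell in B’ vs. A’ (Log2FC −0.50 ± 0.122, FDR = 0.00850) and was higher in F’ than in B’ (0.67 ± 0.125, FDR = 0.00265). The gene model overlaps that of a sorbitol dehydrogenase on the same strand over 3648 bases, so reads of the neighbour could be counted here. LOC102593539 (chromosome 1) had 428, 385 and 504 normalised counts in F’, below 640, 675 and 575 in B’ (Log2FC −0.53 ± 0.131, FDR = 0.0125) and 604, 593 and 540 in A’ (−0.38 ± 0.127, FDR = 0.0312). The call against A’ was lost with the block (FDR = 0.054) and when any 1 of 5 libraries was left out (FDR between 0.0510 and 0.0882). The call against B’ was lost without B’ library 2 (FDR = 0.0601) or F’ library 1 (FDR = 0.0506).

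**Figure D3:**
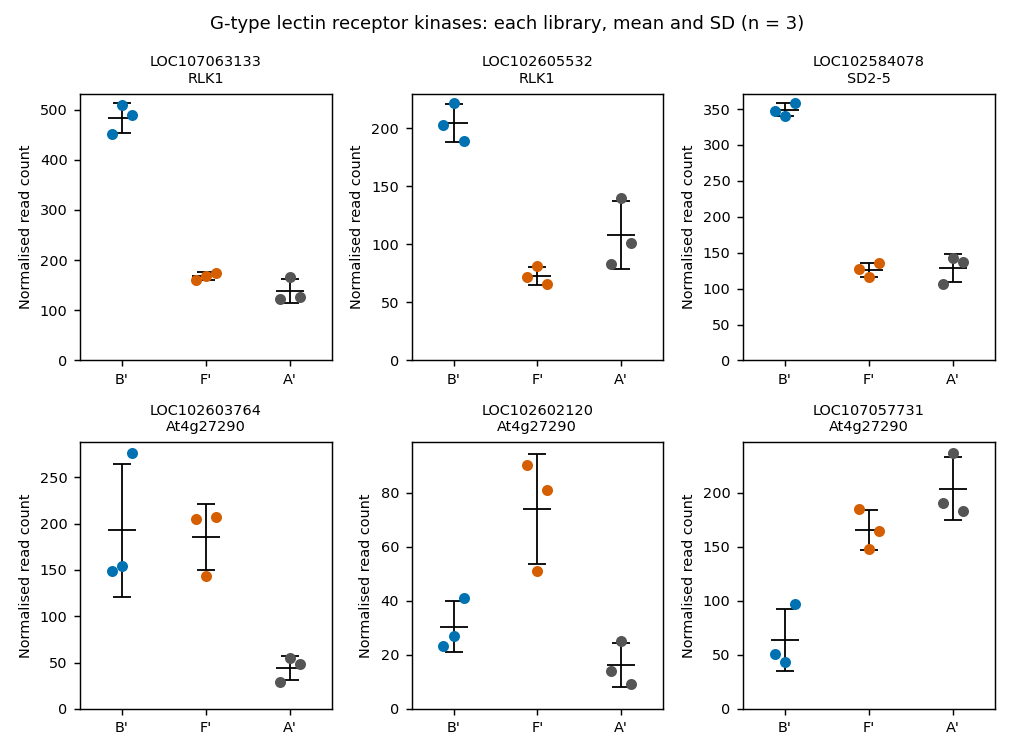
Normalised read counts (y axis, linear, starting at 0) of 6 G-type lectin receptor kinase loci in B’, F’ and A’. Points are single libraries and bars are the mean with the SD (n = 3). LOC107063133, LOC102605532 and LOC102584078 are highest in B’, LOC102602120 is highest in F’, and LOC107057731 is lowest in B’.

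SD2-5 was the product name of 12 loci, of which 7 were tested. There were 3 that rose and 1 that fell in B’ vs. A’, 2 and 1 in F’ vs. A’, and 1 and 2 in F’ vs. B’. LOC102584078 had 347, 341 and 359 normalised counts in B’, against 128, 116 and 135 in F’ and 106, 143 and 137 in A’. B’ was higher than A’ by a Log2FC of 1.45 ± 0.149 (FDR = 2.44e-05) and F’ lower than B’ by −1.47 ± 0.128 (FDR = 2.19e-05), while F’ and A’ overlapped (−0.01 ± 0.170, FDR = 0.981).

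LOC102582520, also named SD2-5, had 76.2, 87.5 and 67.5 normalised counts in F’ and 121, 101 and 112 in A’ (Log2FC −0.52 ± 0.184, FDR = 0.0419). This call was lost with DESeq2 (adjusted p = 0.0856), with the block (FDR = 0.0762) and when any 1 of 5 libraries was left out (FDR between 0.0558 and 0.143). Of the loci too low to be tested, LOC102583737 had 8.36, 10.3 and 8.56 normalised counts in B’, 0.930, 3.20 and 1.93 in F’, and 1.17, 0 and 0 in A’, a B’ to A’ ratio of 23.9 with an exact 95% counting interval of 3.96 to 973. It was chosen after its values were seen.

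At4g27290, after an Arabidopsis locus, was the most frequent G-type product name, with 18 loci. In B’ vs. A’, 7 of 15 tested loci rose and 1 fell, in F’ vs. A’ 8 of 14 rose and 1 fell, and in F’ vs. B’ 4 of 16 rose and 2 fell. LOC102603764 (chromosome 4) had 149, 154 and 276 normalised counts in B’, 205, 144 and 207 in F’, and 29.3, 54.5 and 48.5 in A’. It rose in both comparisons with A’, by a Log2FC of 2.14 ± 0.297 in B’ (FDR = 0.000228) and 2.08 ± 0.233 in F’ (FDR = 1.12e-05). No difference between F’ and B’ passed the test (−0.07 ± 0.252, FDR = 0.875).

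LOC102604934 had 26.9, 30.9 and 40.2 normalised counts in B’, 46.5, 19.2 and 39.5 in F’, and 8.21, 12 and 2.31 in A’, with a Log2FC of 2.11 ± 0.442 in B’ (FDR = 0.00356) and 2.22 ± 0.488 in F’ (FDR = 0.00281) vs. A’. LOC102602120 was highest in F’, with 90.2, 51.2 and 81.0 normalised counts, against 23.2, 27.1 and 41.1 in B’ and 14.1, 25.1 and 9.24 in A’. F’ rose over A’ by 2.20 ± 0.348 (FDR = 0.000236) and over B’ by 1.27 ± 0.308 (FDR = 0.0110, and 0.0558 without F’ library 1), whereas B’ and A’ overlapped (0.92, FDR = 0.0972). Whether the B’ vs. A’ difference itself differed between these loci was not tested.

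LOC107057731 was lowest in B’, with 51.1, 43.0 and 96.7 normalised counts, against 185, 148 and 165 in F’ and 191, 237 and 183 in A’. Its F’ and A’ libraries overlapped (Log2FC −0.27, FDR = 0.189). B’ was lower than A’ by a Log2FC of −1.65 ± 0.267 (FDR = 0.000643) and F’ higher than B’ by 1.37 ± 0.278 (FDR = 0.00435). LOC102604444 had 433, 356 and 653 normalised counts in B’, 356, 243 and 299 in F’, and 326, 498 and 441 in A’. Its calls, −0.47 in F’ vs. A’ (FDR = 0.0445) and −0.69 in F’ vs. B’ (FDR = 0.0416), were lost with upper-quartile scaling (FDR = 0.0578 and 0.0601) and when single libraries were left out (FDR up to 0.175 and 0.124). The F’ vs. A’ call was also lost with the block (FDR = 0.0686) and with all 9 libraries in 1 fit (FDR = 0.108).

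A pair of At4g27290 loci had almost no reads in A’. LOC107057684 had 13.9, 17.8 and 13.7 normalised counts in B’ and 22.3, 6.40 and 16.4 in F’, and no read in A’. Against a floor of 3 counts per library, it was at least 4.43-fold higher in B’ (FDR = 0.000327) and at least 4.40-fold higher in F’, where it was not tested. LOC102602456 (chromosome 10) had 11.1, 3.74 and 12.8 normalised counts in B’ and 17.7, 11.7 and 12.5 in F’, and a single read over the 3 libraries of A’. The ratio of F’ to A’ was 37.2 (exact 95% counting interval 6.32 to 1500, FDR = 0.000378), and that of B’ to A’ was 24.6 (4.11 to 1000), without a test.

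Of the loci with other G-type names, LOC102581635 is named CES101, after an Arabidopsis receptor kinase gene. It had 112, 97.3 and 135 normalised counts in B’, 48.3, 49.1 and 50.1 in F’, and 21.1, 21.8 and 27.7 in A’. The 3 groups were separate, with a Log2FC of 2.30 ± 0.238 in B’ vs. A’ (FDR = 2.52e-05), 1.08 ± 0.267 in F’ vs. A’ (FDR = 0.00624) and −1.23 ± 0.200 in F’ vs. B’ (FDR = 0.00115).

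F’ stood above both other bulks at LOC102588540 and LOC102589184. LOC102588540 (At1g67520) had 96.7, 56.6 and 105 normalised counts in F’, against 27.9, 29.9 and 40.2 in B’ and 24.6, 22.9 and 27.7 in A’ (Log2FC 1.80 ± 0.283 vs. A’, FDR = 0.000226, and 1.39 ± 0.291 vs. B’, FDR = 0.00509). LOC102589184 (At1g11410) had 15.8, 18.1 and 31.8 in F’, against 5.57, 4.68 and 6.85 in B’ and 7.03, 2.18 and 2.31 in A’ (2.51 ± 0.534 vs. A’, FDR = 0.00228, and 1.91 ± 0.437 vs. B’, FDR = 0.00817).

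SD1-1 (LOC102581562) had 43.6, 51.4 and 76.2 normalised counts in B’, 139, 104 and 134 in F’, and 121, 93.8 and 90.1 in A’, with F’ above B’ by a Log2FC of 1.13 ± 0.241 (FDR = 0.00583). Its B’ vs. A’ value of −0.81 (FDR = 0.0241) was lost when any 1 of 4 libraries was left out (FDR between 0.0530 and 0.0996). LOC107060609 (At4g03230, chromosome 2) had 81.7, 55.2 and 35.9 in B’, 135, 107 and 84.8 in F’, and 77.4, 179 and 119 in A’. Its Log2FC of −1.12 in B’ vs. A’ (FDR = 0.0230) and 0.91 in F’ vs. B’ (FDR = 0.0412) were each lost when any 1 of 4 libraries was left out (FDR up to 0.134 and 0.163), and it overlaps LOC102580959, a locus of the same name and strand, by 78 bases. LOC102580959 itself had 512, 593 and 609 in B’, 988, 1056 and 1124 in F’, and 1007, 853 and 821 in A’, and fell in B’ vs. A’ (−0.63 ± 0.128, FDR = 0.00283). It was chosen after its values were seen.

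Of the G-type loci with most reads, LOC102596051 (At2g19130, chromosome 7) had 2357, 2705 and 2226 normalised counts in F’ and 1340, 1832 and 1664 in A’, a Log2FC of 0.61 ± 0.135 (FDR = 0.00304). B’, at 2315, 2070 and 1724, overlapped with both. LOC102586076 (At1g34300, chromosome 3) had 2244, 2056 and 1420 in B’, 1292, 1551 and 1140 in F’, and 1148, 1469 and 1300 in A’. The libraries overlapped, and its calls of 0.56 in B’ vs. A’ (FDR = 0.0241) and −0.53 in F’ vs. B’ (FDR = 0.0453) were each lost when any 1 of 4 libraries was left out (FDR up to 0.0857 and 0.166). The F’ vs. B’ call was also lost with RLE scaling (FDR = 0.0516). SD1-29, which in Arabidopsis perceives bacterial hydroxy fatty acids, had one locus (LOC102601228), with at most 1.71 normalised counts in B’ and at most 1.16 in A’. It is named here for that role, after its values were seen.

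The L-type class had 11 of 21 tested loci called in B’ vs. A’, 9 higher and 2 lower, with a median Log2FC of 0.15. The F’ vs. A’ comparison called 9 of 21, 6 higher and 3 lower, with a median of 0.27, and for F’ vs. B’ 11 of 22 were called, 5 higher and 6 lower, with a median of −0.03. Among all genes tested, 32.9%, 35.6% and 30.0% were called in these comparisons. The F’ vs. A’ calls became 5 without A’ library 3, and the F’ vs. B’ calls became 7 without B’ library 1 or F’ library 2 and 6 without F’ library 3. At an FDR of 0.01 they numbered 3 and 4. Summed over 25 loci, the class had 7902 to 10230 normalised counts in B’, 8677, 10064 and 8488 in F’, and 8160 to 9225 in A’, and these sums overlapped. Of the 4 loci named S.5, 3 were highest in B’.

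S.5 was the name of 4 loci. LOC102598245 (chromosome 3) had 1582, 1434 and 1564 normalised counts in B’, 613, 599 and 599 in F’, and 547, 610 and 596 in A’. B’ was higher than A’ by a Log2FC of 1.40 ± 0.115 (FDR = 4.66e-06) and F’ was lower than B’ by −1.35 ± 0.105 (FDR = 1.09e-05), while F’ and A’ overlapped (0.06 ± 0.110, FDR = 0.689). LOC102580485 had 171, 196 and 146 in B’, 123, 82.2 and 80.0 in F’, and 38.7, 53.4 and 64.7 in A’. The groups did not overlap, and the Log2FC was 1.72 ± 0.214 in B’ vs. A’ (FDR = 0.000103), 0.88 ± 0.249 in F’ vs. A’ (FDR = 0.0136) and −0.85 ± 0.207 in F’ vs. B’ (FDR = 0.0111). The F’ vs. A’ call was lost without A’ library 1 (FDR = 0.0516) or F’ library 1 (FDR = 0.0840), and the F’ vs. B’ call without B’ library 2 (FDR = 0.0559) or F’ library 3 (FDR = 0.0530).

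LOC102590432 was nearly silent outside B’. It had 27.9, 31.8 and 25.7 normalised counts in B’, 1.86, 5.34 and 0.964 in F’, and 1.17, 0 and 0 in A’. The ratio of B’ to A’ was 74.7, with an exact 95% counting interval of 13.1 to 2980 (FDR = 4.1e-05), and F’ was lower than B’ by a Log2FC of −3.38 ± 0.500 (FDR = 0.000647). The remaining S.5 locus, LOC107058481, had 7.43, 9.35 and 9.41 normalised counts in B’, 15.8, 5.34 and 21.2 in F’, and 3.52, 13.1 and 9.24 in A’, with its highest libraries in F’ and overlapping groups (FDR = 0.327 in F’ vs. A’ and 0.338 in F’ vs. B’).

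IV.1-like was the name of 5 loci, 4 of them on chromosome 9. Of these, 3 rose in B’ vs. A’, 4 in F’ vs. A’ and 4 in F’ vs. B’, and the lowest Log2FC among them was −0.25 for LOC102597481 in B’ vs. A’ (FDR = 0.207). LOC102584362 had 138, 179 and 147 normalised counts in B’, 216, 248 and 204 in F’, and 75.0, 74.2 and 63.5 in A’. All groups were separate, with a Log2FC of 1.14 ± 0.179 in B’ vs. A’ (FDR = 0.000525) and 1.66 ± 0.161 in F’ vs. A’ (FDR = 2.94e-06). LOC102579814 had 116, 107 and 125 in B’, 161, 171 and 154 in F’, and 56.3, 69.8 and 64.7 in A’ (0.88 ± 0.185, FDR = 0.00361, and 1.36 ± 0.171, FDR = 3.17e-05). The F’ vs. B’ differences were smaller, at 0.52 (FDR = 0.0270) and 0.47 (FDR = 0.0353), and were lost when any 1 of 3 and any 1 of 5 libraries was left out (FDR up to 0.0899 and 0.147). That of LOC102579814 was also lost with DESeq2 (adjusted p = 0.0533).

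LOC102593319 had 548, 536 and 416 normalised counts in B’, 630, 787 and 726 in F’, and 597, 589 and 582 in A’, and was higher in F’ than in B’ (Log2FC 0.51 ± 0.138, FDR = 0.0189). This call was lost without F’ library 2 (FDR = 0.0602) or 3 (FDR = 0.0633). LOC102597481 had 204, 190 and 191 in B’, 294, 366 and 272 in F’, and 234, 262 and 203 in A’. F’ rose over B’ by 0.66 ± 0.142 (FDR = 0.00583), and the rise over A’ of 0.43 (FDR = 0.0367) was lost with DESeq2 (adjusted p = 0.0662) or when any 1 of 4 libraries was left out (FDR up to 0.171). The 5th locus, LOC102584042, had 14.9, 14.0 and 16.3 in B’, 13.0, 18.1 and 10.6 in F’, and 3 reads over the libraries of A’. The ratio to A’ was 13.3 for B’ (exact 95% counting interval 4.28 to 66.4, FDR = 0.000874) and 12.1 for F’ (3.87 to 61.0, FDR = 0.00135).

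**Figure D4:**
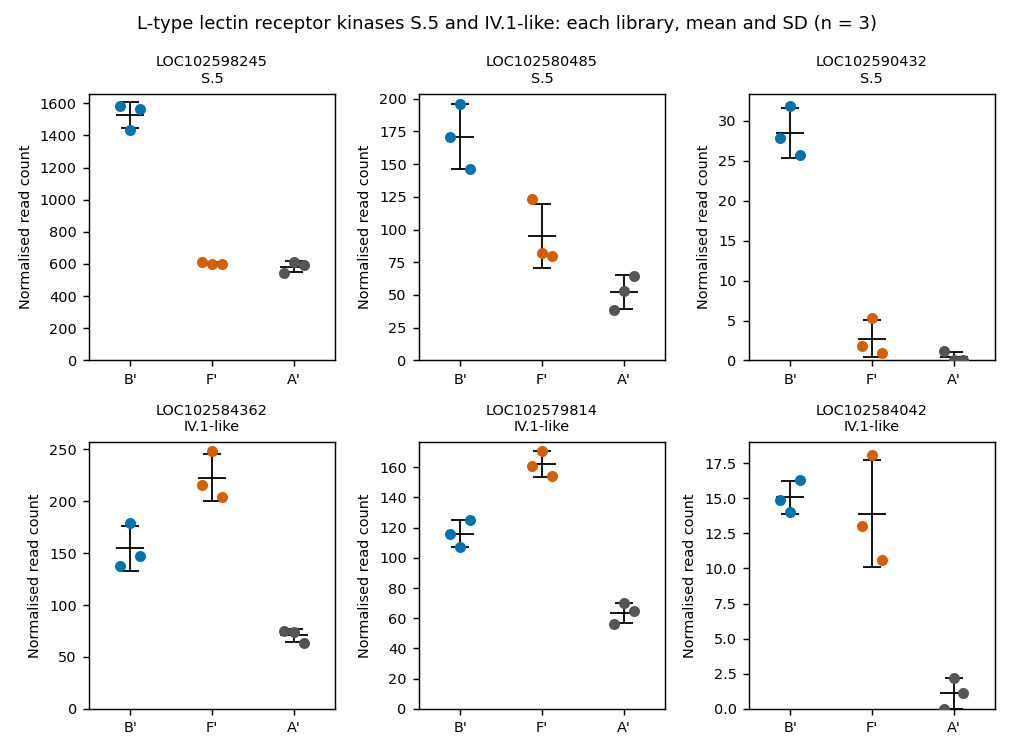
Normalised read counts (y axis, linear, starting at 0) of 3 S.5 loci (top) and 3 IV.1-like loci (bottom) in B’, F’ and A’. Points are single libraries and bars are the mean with the SD (n = 3). The 3 S.5 loci shown are highest in B’, LOC102584362 and LOC102579814 are highest in F’, and LOC102584042 has at most 2.18 in A’.

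The IX.1-like loci differed from each other. LOC102596545 had 78, 72 and 88.1 normalised counts in B’, 22.3, 31.0 and 27.0 in F’, and 7.03, 36.0 and 24.3 in A’, with a Log2FC of 1.82 ± 0.385 in B’ vs. A’ (FDR = 0.00377) and −1.58 ± 0.235 in F’ vs. B’ (FDR = 0.000669). LOC102589852 (chromosome 10) had 284, 209 and 192 in B’, 153, 145 and 138 in F’, and 170, 228 and 222 in A’. Its calls in F’, −0.49 vs. A’ (FDR = 0.0244) and −0.66 vs. B’ (FDR = 0.0160), were lost when single libraries were left out (FDR up to 0.101 and 0.0643). The call vs. A’ was also lost with the block (FDR = 0.05 after rounding). S.1 (LOC102580041, chromosome 3) had 1138, 1092 and 780 in B’, 748, 942 and 702 in F’, and 519, 589 and 613 in A’, and rose in B’ (0.82 ± 0.151, FDR = 0.00160) and in F’ (0.49 ± 0.132, FDR = 0.0103) vs. A’.

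Of the 3 loci named VIII.1-like, 2 fell in F’ vs. A’. Their Log2FC in B’ vs. A’ lay between −0.46 and 0.12 without a call (FDR between 0.0949 and 0.816). LOC102594661 (chromosome 3) was the L-type locus with most reads, at 2968, 2613 and 1917 normalised counts in B’, 2793, 3555 and 2690 in F’, and 2634, 3379 and 3058 in A’. All its groups overlapped. LOC102589086 had 18.6, 18.1 and 19.3 in F’, against 62.2, 44.0 and 33.4 in B’ and 23.4, 54.5 and 50.8 in A’, with a Log2FC of −1.31 ± 0.313 vs. B’ (FDR = 0.0101). The value of −1.18 vs. A’ (FDR = 0.0172) was lost without A’ library 2 (FDR = 0.0909) or 3 (FDR = 0.0801).

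LOC102579352 (VIII.1-like, chromosome 10) had 84.6, 110 and 79.1 normalised counts in F’ and 111, 177 and 161 in A’, a Log2FC of −0.70 (FDR = 0.0152) that was lost when any 1 of 3 libraries was left out (FDR up to 0.0757). VIII.2 (LOC102588980) had 1620, 1544 and 1198 in B’ and 2110, 1922 and 1753 in A’, a Log2FC of −0.40 (FDR = 0.0431) that was lost with the block (FDR = 0.0543) and when any 1 of 5 libraries was left out (FDR up to 0.137). S.4-like (LOC102597443, chromosome 5) fell in B’, with 273, 260 and 212 against 354, 335 and 357 in A’ (−0.48 ± 0.134, FDR = 0.0169, and 0.0734 without A’ library 3).

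Lectin loci often lay beside each other. Within 100 kb of another member on the same contig were 69 of the 107 loci, in 23 groups. Of the 11 groups with at least 2 called loci in B’ vs. A’, 2 held both higher and lower calls, as did 2 of 9 in F’ vs. A’ and 5 of 12 in F’ vs. B’. Over all lectin loci, 30 were called higher and 13 lower, 28 and 11, and 22 and 20 in these comparisons. Groups of other neighbouring genes were not counted, so these counts have no background. The largest group held 8 At4g27290 loci, on a contig to which the tables give chromosome 4 for LOC102603764 and LOC107062458 only. Neighbours differed there. In B’ vs. A’, LOC102603764, LOC102592491 (0.75) and LOC107062458 (0.57) rose and LOC107057731 fell, and the starts of LOC102603764 and LOC107057731 are 41.0 kb apart. In F’ vs. A’, LOC102603764, LOC102604991 (0.90) and LOC107062458 (0.56) rose and LOC102604444 fell. LOC102604991 overlaps a gene for a TFIID subunit 14b-like protein on the opposite strand over 5087 bases, so its reads are uncertain where counting ignored strand. LOC102592491, LOC102604991 and LOC107062458 were named after their values were seen, as neighbours.

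**Figure D5:**
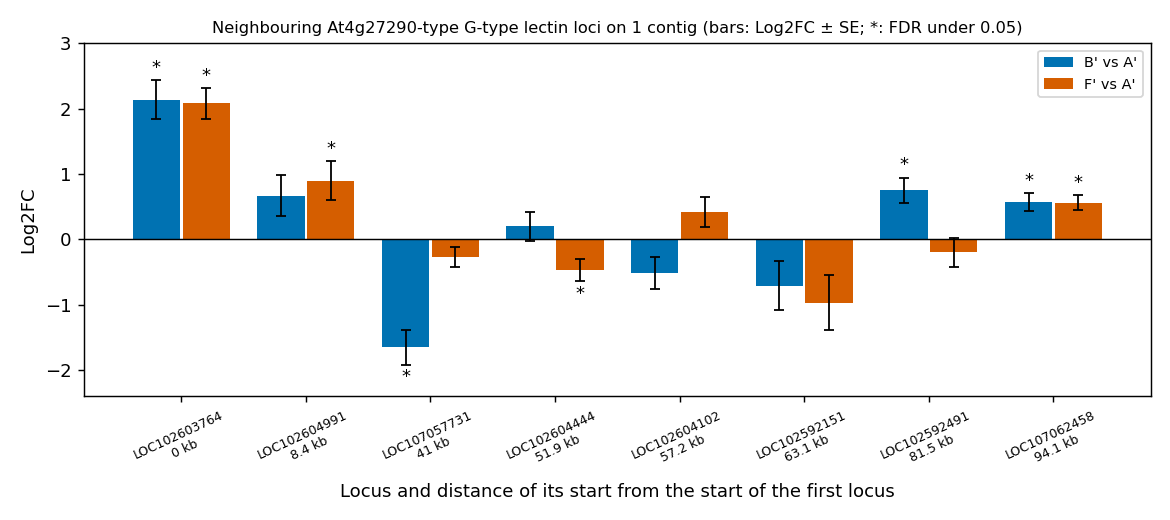
Log2FC (y axis) of the 8 neighbouring At4g27290 loci in B’ vs. A’ (blue) and F’ vs. A’ (orange), ordered by the distance of each start from the first (x axis labels, kb). Bars are Log2FC with the SE and asterisks mark an FDR under 0.05. LOC102603764 is near 2 in both comparisons, whereas LOC107057731 is at −1.65 in B’ and −0.27 in F’.

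Other receptors of the cell surface were described for comparison, from a list of 80 loci chosen by product name (LysM chitin receptors, wall-associated and cysteine-rich receptor kinases, the FERONIA family, co-receptors and respiratory burst oxidases). Of these, 24 rose and 4 fell of 62 tested in B’ vs. A’, 16 rose and 11 fell of 63 in F’ vs. A’, and 7 rose and 23 fell of 64 in F’ vs. B’. The shares called were 45.2%, 42.9% and 46.9%, beside 32.9%, 35.6% and 30.0% of all genes. Among the 15 LysM loci, 6 of 13 tested rose and 2 fell in B’ vs. A’, 3 rose and 1 fell in F’ vs. A’, and 1 rose and 4 fell in F’ vs. B’. The shares called were 61.5%, 30.8% and 38.5%, against the same background. LysM receptor kinase 4 (LOC102589174), whose Arabidopsis counterpart takes part in chitin perception, had 392, 323 and 223 normalised counts in B’, 206, 281 and 192 in F’, and 35.2, 60.0 and 45.1 in A’. Its Log2FC was 2.74 ± 0.247 in B’ (FDR = 9.53e-06) and 2.28 ± 0.217 in F’ (FDR = 2.43e-06) vs. A’. The F’ vs. B’ value of −0.47 did not pass (FDR = 0.124).

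Wall-associated kinases bind pectin, and 2 wall-associated kinase 2-like loci were highest in B’. LOC102584582 had 642, 727 and 752 normalised counts in B’, 173, 226 and 160 in F’, and 91.4, 61.1 and 71.6 in A’ (Log2FC 3.26 ± 0.164 in B’ vs. A’, FDR = 1.4e-07). LOC102584244 had 283, 221 and 187 in B’, 48.3, 75.8 and 48.2 in F’, and 29.3, 38.2 and 32.3 in A’ (2.79 ± 0.213, FDR = 2.78e-06). Cysteine-rich receptor kinase 2 (LOC102596000) had 32.5, 31.0 and 28.9 in F’, against 6.5, 16.8 and 12 in B’ and 0, 0 and 5.78 in A’. The co-receptor somatic embryogenesis receptor kinase 2 (LOC102578494) fell in F’, with 6.51, 1.07 and 4.82 against 26.9, 22.4 and 44.5 in B’ and 68.0, 36.0 and 48.5 in A’.

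A THESEUS 1 locus (LOC102588300), named after a wall-integrity sensor of Arabidopsis, had 113, 109 and 99.3 normalised counts in F’, against 422, 346 and 249 in B’ and 212, 246 and 259 in A’ (Log2FC −1.14 ± 0.149 vs. A’, FDR = 4.52e-05). Another THESEUS 1 locus (LOC102598368) was lowest in B’, with 186, 166 and 145 against 264, 201 and 254 in F’ and 314, 336 and 338 in A’ (−0.98 in B’ vs. A’, FDR = 0.000235). Its F’ values of −0.44 vs. A’ (FDR = 0.0224) and 0.53 vs. B’ (FDR = 0.0307) were lost when single libraries were left out (FDR up to 0.0782 and 0.12). A respiratory burst oxidase, an enzyme that makes superoxide (LOC102578438), rose in F’, with 183, 123 and 119 against 49.2, 31.8 and 56.5 in B’ and 34.0, 55.6 and 50.8 in A’ (1.61 ± 0.240 vs. A’, FDR = 0.000146).

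A further list of 35 loci held lectin-domain products without the word lectin, such as hevein-like proteins and phloem protein 2, a phloem lectin. Of these, 13 of 27 tested rose and 3 fell in B’ vs. A’, 4 of 25 rose and 7 fell in F’ vs. A’, and 3 of 27 rose and 14 fell in F’ vs. B’. The shares called were 59.3%, 44.0% and 63.0%, beside 32.9%, 35.6% and 30.0% of all genes. The 16 calls in B’ vs. A’ became 10 without B’ library 2, 9 without A’ library 2 and 10 without A’ library 3, and 8 at an FDR of 0.01. The F-box protein PP2-B10-like (LOC102600347) had 281, 345 and 400 normalised counts in B’, 139, 100 and 130 in F’, and 46.9, 53.4 and 50.8 in A’ (Log2FC 2.77 ± 0.184 in B’ vs. A’, FDR = 1.07e-06). PP2-B15-like (LOC102588330) had 201, 224 and 280 in B’, 38.1, 18.1 and 29.9 in F’, and 62.1, 72 and 67 in A’, and so rose in B’ (1.82 ± 0.181, FDR = 1.95e-05) and fell in F’ (−1.19 ± 0.278, FDR = 0.00424) vs. A’. The phloem protein 2-like A5 locus (LOC102594838) had 55.7, 42.1 and 83 in B’, 20.5, 7.47 and 17.4 in F’, and 3.52, 5.45 and 3.47 in A’ (3.83 ± 0.416 in B’ vs. A’, FDR = 3.66e-05). PP2-B1-like (LOC102584683) fell vs. A’ in B’ (−0.74, FDR = 0.0224, up to 0.0978 with a library left out) and in F’ (−0.72, FDR = 0.00417). The A10-like locus LOC102586787 fell in F’ vs. A’ (−1.18, FDR = 0.000284) and vs. B’ (−1.07, FDR = 0.012, up to 0.0562). PP2-B12 (LOC102588908) rose in F’ vs. B’ (0.98, FDR = 0.0152, and 0.0505 without B’ library 1). PP2-A15-like (LOC102592841) was highest in F’ and lowest in B’, with 152, 146 and 129 in B’, 324, 349 and 335 in F’, and 265, 217 and 183 in A’. It rose in F’ vs. B’ (1.23 ± 0.127, FDR = 6.51e-05) and in F’ vs. A’ (0.62, FDR = 0.0042). In B’ vs. A’ it fell (−0.63, FDR = 0.0133, and 0.0597 without A’ library 1).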

How the data were processed

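The authors deposited raw counts per gene, as whole numbers, in tables of A’ with B’ and of A’ with F’. Bowtie2 2.1.0, TopHat2 2.0.9 and DESeq2 are named in the submitters’ processing notes, and the counting tool is not given in the sources used here. The lowest total in a table was 5 counts. Libraries were directional, but whether counting used strand is not given. The authors’ 18 normalized-count columns and their fold changes and p-values were not used. Genome positions are those of the tables, and all 107 loci match SolTub_3.0 in RefSeq.

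Members and lists were chosen by product name with earlier results of these data known. Each comparison was fitted on its own 6 libraries with edgeR 4.0.16 in R 4.3.3 (filterByExpr, TMM, robust quasi-likelihood, Benjamini-Hochberg over all tested genes). F’ vs. B’ used the 22988 genes of both tables. Columns named B3A and F3A were read as the third libraries. The tests were checked on simulated data. Named loci are all chitin-binding lectins, in each class and comparison the 4 highest and 4 lowest called Log2FC with a mean of at least 20 normalised counts in either group (so that a locus may qualify through its high group alone), called loci for which no library of a group exceeded 3 counts, the 3 most abundant of each class, and, of the other lists, the 2 highest and 2 lowest. Alternatives were DESeq2 1.42.0, RLE and upper-quartile scaling, no filter beyond 1 count, all 9 libraries in a joint fit, the library number as a block, an FDR of 0.01 and leaving out each library. A planned protein comparison was not run, as protein sequences were not used here.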

Additional observations from a re-analysis of the deposited data

Results flagged for a closer look

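The SD2-5 locus LOC102587497 (chromosome 7) stood out because B’ and F’ moved in opposite directions from A’, and the direct comparison of F’ with B’ was itself called. It had 97.5, 89.8 and 95.8 normalised counts in B’, 213, 187 and 232 in F’, and 109, 158 and 168 in A’. The Log2FC was −0.61 ± 0.191 in B’ vs. A’ (FDR = 0.0301), 0.56 ± 0.174 in F’ vs. A’ (FDR = 0.0228) and 1.15 ± 0.153 in F’ vs. B’ (FDR = 0.000318, edgeR). The values against A’ were each lost when any of 3 libraries was left out (FDR between 0.0914 and 0.142 for B’ and between 0.0507 and 0.0874 for F’). The locus was chosen after its values were seen, and B’ and F’ share the A’ libraries.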

How the results depend on the processing

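Of the 86 called results of the named lectins, none changed sign under an alternative, 57 held under every alternative fit and with each library left out, 17 were lost only when a library was left out and 12 were lost under another fit. At an FDR of 0.01, the called lectins numbered 22 in F’ vs. A’ and 26 in F’ vs. B’, of which 15 and 17 were G-type and 3 and 4 L-type. Related receptors then numbered 17 and 19, and lectin-domain products 8 in B’ vs. A’ and 11 in F’ vs. B’. With single libraries left out, called lectins ranged between 36 and 44 in B’ vs. A’, 27 and 39 in F’ vs. A’, and 31 and 42 in F’ vs. B’. L-type calls ranged between 5 and 8 in F’ vs. A’ and between 6 and 11 in F’ vs. B’, and lectin-domain products between 9 and 15 in B’ vs. A’. The median of the chitin-binding and other class in F’ vs. A’, −1.03, was 0.08 with DESeq2 and 0.07 with no filter. Both of these fits took in all 9 loci of the class instead of the 7 tested, so the medians cover different loci. Deviations of same-numbered libraries from their group means had correlations between −0.248 and 0.332. The highest, 0.313 and 0.332, were in F’ vs. B’. Those of differently numbered libraries lay between −0.448 and 0.321. The ranges are alike, so these values cannot decide whether the numbers pair the samples. With the library number as a replicate block, called lectins numbered 42, 31 and 48 in B’ vs. A’, F’ vs. A’ and F’ vs. B’. The share of all genes called is not given for the alternative settings, here or above. Whether the counts of lectins changed more than those of other genes cannot be said. The cause of the changed counts was not tested. Loci with few reads limit what could be seen, and 21 were tested in no comparison.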
